A study of Mus musculus with 9 samples.

Results

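Bone marrow-derived macrophages pre-treated with D-2-hydroxyglutarate (D2HG) as an octyl ester before lipopolysaccharide (LPS) were compared with macrophages given vehicle before the same LPS exposure. The comparison is between groups that hold 6 of the 9 libraries of the study, chosen by their labels. D2HG_LPS (n = 3) received D2HG for 1 h and then LPS for 24 h, and Veh_LPS (n = 3) received vehicle for 1 h and then LPS for 24 h. Veh_N (n = 3), given vehicle in both steps, serves here as a reference level. All 9 libraries were fitted together, so Veh_N also enters the filter, the scaling and the estimate of spread. All cells came from wild-type C57Bl/6 mice, and their age is not stated. No group received the ester without LPS and none received the octyl ester of another acid, so effects of D2HG and of an octyl ester as such cannot be told apart. The labels state no dose of the ester. The labels do not say whether replicates were separate animals or cultures, so the p-values measure the spread between these libraries, which may be technical.

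LPS is a cell wall component of Gram-negative bacteria that Toll-like receptor 4 detects, and macrophages answer it with cytokine production, a shift toward glycolysis and lower expression of many genes of the resting cell. D2HG is made by reduction of alpha-ketoglutarate and is removed by the mitochondrial enzyme D2HGDH. It resembles alpha-ketoglutarate and at high levels competes with it in dioxygenases that demethylate histones and DNA or hydroxylate the hypoxia-inducible factors. An octyl ester masks the charge of the acid so that it can enter cells, where esterases release the acid and octanol.

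Depth was 11539635 to 13209786 gene counts in the D2HG_LPS libraries and 11049012 to 13759935 in Veh_LPS. Along the leading principal component of the 6 LPS libraries (36.9% of variance) the groups did not overlap (-18.01 to -8.45 in D2HG_LPS and 4.07 to 26.77 in Veh_LPS), with Veh_LPS replicate 3 farthest out (151 genes were called without it, against 245 with it). None of 10 macrophage markers was called, and their summed level was 12756 to 13551 CPM in D2HG_LPS and 12716 to 13311 CPM in Veh_LPS (CPM, counts relative to the scaled library total). The summed level of 10 neutrophil markers, of which 7 were tested and 0 were called, was 87.1 to 104.0 CPM against 96.3 to 113.7 CPM. Of 9 marker lists, those of dendritic cells, mast cells and stroma or endothelium held 1 called gene each (Fscn1, Hdc and Kdr), and the mast cell list summed to 71.1 to 72.1 CPM against 106.4 to 118.3 CPM. Hdc made up nearly all of that sum (a mean of 70.7 CPM against 110 CPM), the other 6 members were at means below 1 CPM in both LPS groups, and the defining marker Fcer1a had 0 counts. In bulk RNA, fewer cells of a type and less RNA per cell cannot be told apart.

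Of 11622 genes tested, 245 were called (2.11%), 134 higher (1.15%) and 111 lower (0.955%) after the ester. The call is a Benjamini-Hochberg adjusted p below 0.05 over all tested genes in edgeR's quasi-likelihood test, which gives every adjusted p below unless another tool is named. Log2 fold changes are given ± standard error (SE). Most changes were small. Only 24 of the genes called higher and 13 of those called lower moved at least 2-fold, and 55 and 54 moved less than 1.5-fold. The median log2 fold change was 0.63 for genes called higher and -0.61 for genes called lower, against a median of 0.01 and a median size of 0.15 over all tested genes. In every called gene the 3 D2HG_LPS libraries lay wholly above or wholly below the 3 Veh_LPS libraries, as they did in 2816 of all tested genes (24.2%). An unadjusted p below 0.05 was found in 1832 of the 11622 tested genes, which is the background for the unadjusted counts given below. The gene lists used below were chosen with earlier results of these data known. A share of calls above the background is therefore a description of a list and not a test of it.

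**Figure D1:**
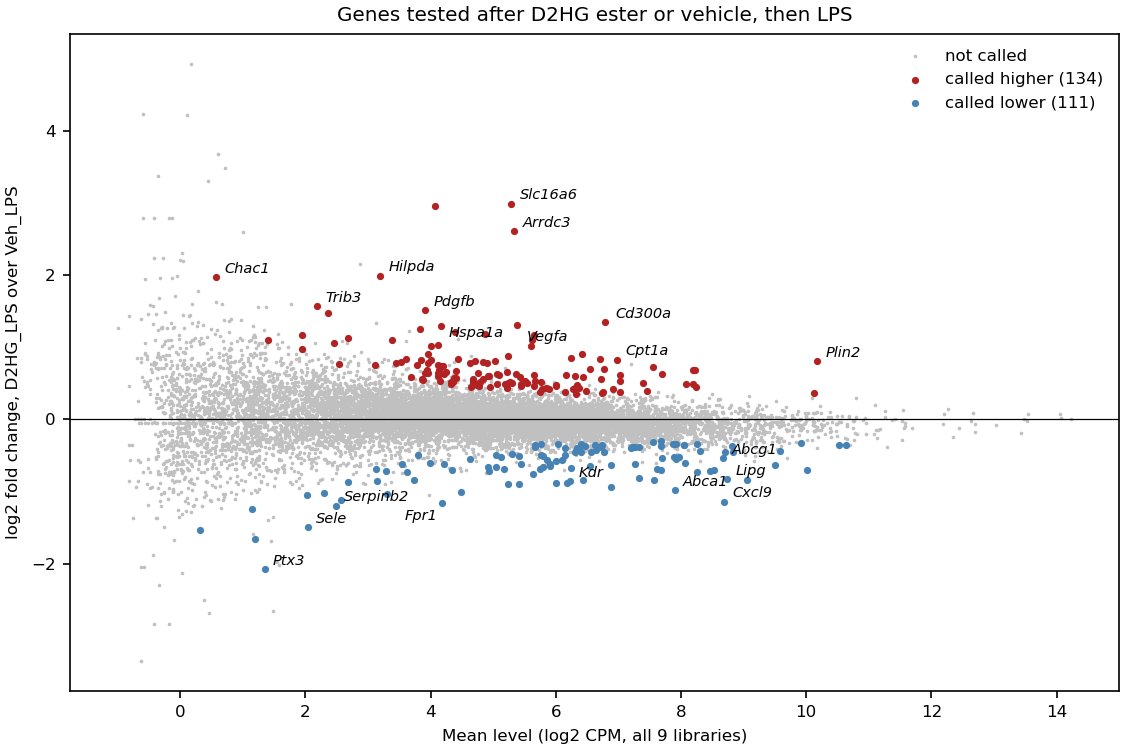
Each point is 1 of 11622 tested genes, placed by its mean level over all 9 libraries (log2 CPM) and its log2 fold change in D2HG_LPS over Veh_LPS. The 134 genes called higher (red) and the 111 called lower (blue) lie mostly within 1 log2 unit of 0, and Slc16a6 and Arrdc3 lie farthest above it among the genes labelled in the plot.

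Weakly expressed genes rarely passed. Among the 2906 least expressed genes 14 were called, and the median SE of a log2 fold change there was 0.32. The most expressed genes, a group of like size, held 104 calls, 32 higher and 72 lower, with a median SE of 0.09. The share of calls that were higher, 54.7%, differed between ways of processing. It was 40.8% with relative log expression size factors and 74.4% with library totals alone, which change only the scaling, 34.3% in DESeq2, which also uses another test, and 43.8% when the 6 LPS libraries were fitted alone. Leaving out 1 library at a time gave 64 calls (without D2HG_LPS replicate 1) to 501 (without Veh_N replicate 1). In all 9 of those fits 56 genes stayed called, 32 higher and 24 lower. Genes described below that are not among the 56 are followed by the libraries whose removal ended the call, with the log2 fold changes of those fits in brackets.

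**Figure D2:**
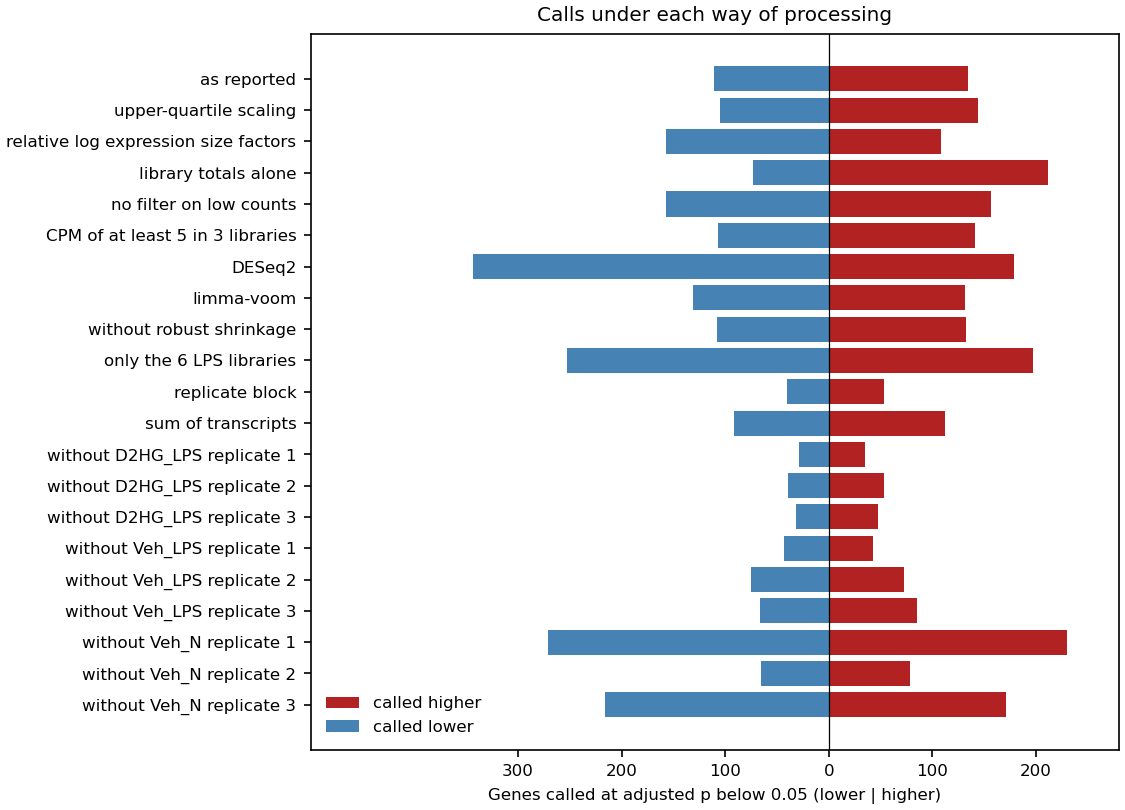
Bars give the number of genes called higher (red, right) and lower (blue, left) in D2HG_LPS over Veh_LPS, for the reported fit and each of 20 alternatives. The total runs from 64 without D2HG_LPS replicate 1 to 522 in DESeq2, around the 245 reported.

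The largest changes among well-expressed genes were in a transporter, an arrestin and a lipid droplet protein, all higher after the ester. Slc16a6, a member of the monocarboxylate transporter family that exports ketone bodies, was at 64.5, 73.5 and 58.7 CPM in D2HG_LPS and 6.91, 8.06 and 9.54 CPM in Veh_LPS (log2 fold change 3.0 ± 0.13, adjusted p = 1.61e-07). After TMM scaling, every D2HG_LPS library was above the Veh_N mean of 42.6 ± 1.25 CPM, while every Veh_LPS library was below it. The TMM factors that scale the library totals were 1.338 to 1.351 in Veh_N and 0.831 to 0.887 in the LPS libraries. Levels set against Veh_N, here and below, therefore depend on this scaling, and their order under other scalings was not examined. The predicted gene Gm45916, chosen after its values were seen, changed by 2.96 ± 0.17. It may share reads with Slc16a6, so the pair may not be separate events. Arrdc3, an alpha-arrestin that directs membrane receptors to degradation, was at 19.2, 22.0 and 16.6 CPM in D2HG_LPS and 3.46, 3.50 and 2.54 CPM in Veh_LPS (log2 fold change 2.62 ± 0.18, adjusted p = 1.22e-05). Its groups were far apart, and Veh_N was at 95.3 ± 13.4 CPM. Hilpda, a lipid droplet protein that inhibits adipose triglyceride lipase and is induced by hypoxia, was at 17.3, 17.6 and 19.5 CPM in D2HG_LPS and 4.25, 4.99 and 4.38 CPM in Veh_LPS (log2 fold change 2.00 ± 0.14, adjusted p = 1.58e-05). Under this scaling Veh_LPS and Veh_N (4.82 ± 0.581 CPM) lay at like levels, and the D2HG_LPS libraries lay above both. Of 15 tested monocarboxylate and organic anion transport genes, only Slc16a6 was called, and the median over all 15 was 0.05. The others ranged from -0.22 (Emb) to 1.02, the latter in a gene with an SE of 0.61.

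Tmbim1, a membrane protein of the Bax inhibitor family, was at 59.7, 58.9 and 62.3 CPM in D2HG_LPS and 26.8, 27.3 and 25.9 CPM in Veh_LPS (log2 fold change 1.18 ± 0.10, adjusted p = 4.96e-05). Nek6, a kinase with a role in mitosis, was at 56.4, 64.0 and 56.6 CPM in D2HG_LPS and 29.6, 26.1 and 26.9 CPM in Veh_LPS (log2 fold change 1.10 ± 0.09, adjusted p = 5.68e-05). In both genes the lowest D2HG_LPS library was well above the highest Veh_LPS library. Hyal1, a lysosomal hyaluronidase, rose by 1.10 ± 0.21 on the log2 scale. Its mean level was 5.34 CPM in D2HG_LPS, 2.51 CPM in Veh_LPS and 21.1 CPM in Veh_N. Hyal1 (0.93 to 1.11) was not called without D2HG_LPS replicate 2 or 3 or without Veh_LPS replicate 2 or 3.

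**Figure D3:**
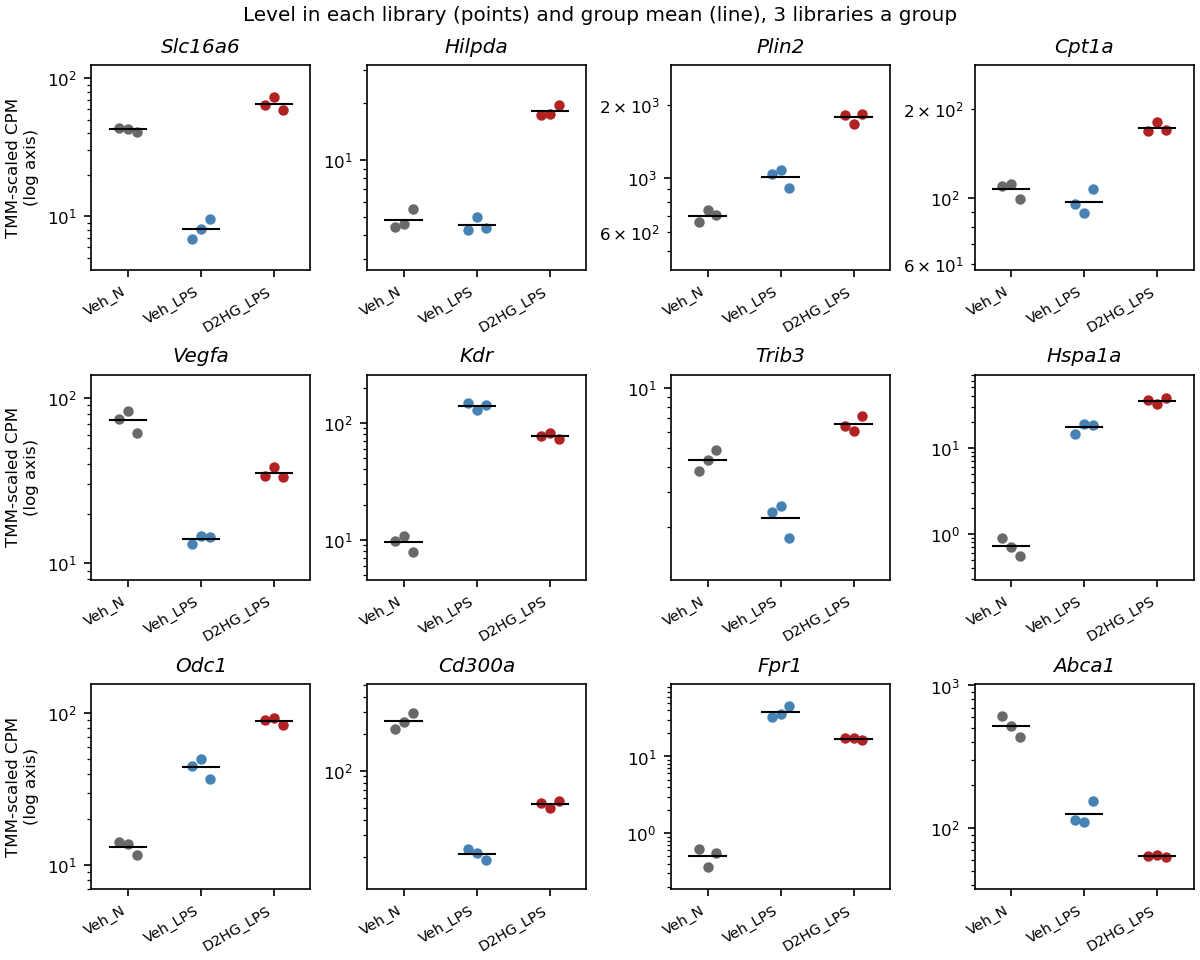
Each point is the level of a gene in 1 library (TMM-scaled CPM, log axis) and each line the mean of 3 libraries, for Veh_N, Veh_LPS and D2HG_LPS. The D2HG_LPS and Veh_LPS points do not overlap in any of the 12 genes, and Slc16a6 spans the widest gap.

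Growth factor genes Pdgfb, Pdgfa and Vegfa rose, and Kdr and Flt1, which encode receptors of vascular endothelial growth factor, fell. Of 19 tested genes of Ras, ERK and growth factor signalling, 5 were called higher (Pdgfb, Pdgfa, Vegfa, Elk3 and Ccnd1) and 0 lower, while the median of the 19 was 0.02. Among the ligands, Pdgfb, a platelet-derived growth factor chain, was at 13.8, 13.2 and 14.01 CPM in D2HG_LPS and 4.84, 5.94 and 3.68 CPM in Veh_LPS (log2 fold change 1.51 ± 0.18, adjusted p = 9.75e-04), and Pdgfa, the other chain, rose by 1.06 ± 0.18. Vegfa, the main angiogenic growth factor, was at 33.5, 38.3 and 33.1 CPM in D2HG_LPS and 13.1, 14.5 and 14.4 CPM in Veh_LPS (log2 fold change 1.32 ± 0.13, adjusted p = 2.78e-04). Both ligand genes were higher in every D2HG_LPS library than in any Veh_LPS library, with Vegfa still under its Veh_N level of 73.3 ± 11.4 CPM. Among the receptors, Kdr was at 76.9, 82.5 and 72.4 CPM in D2HG_LPS and 149, 129.5 and 143 CPM in Veh_LPS (log2 fold change -0.86 ± 0.10, adjusted p = 9.75e-04), and Flt1, named after its values were seen, fell (-0.69 ± 0.13). Veh_N held 9.47 ± 1.48 CPM of Kdr. Kdr is also an endothelial marker: the summed level of 12 stromal and endothelial markers was 91.0 to 100.2 CPM in D2HG_LPS and 149.0 to 167.5 CPM in Veh_LPS, of which Kdr made up most. The endothelial Pecam1 was at a mean of 14.7 CPM in D2HG_LPS and 16.4 CPM in Veh_LPS and Cdh5 at 1.97 and 2.33 CPM, while Emcn and the stromal Col3a1, Pdgfra and Lum had 0 counts in all 6 libraries and the other 5 markers were at means below 1 CPM in both groups. The part of other cell types in the fall of Kdr was not tested. Pdgfa (0.98) was not called without D2HG_LPS replicate 1. Flt1 (-0.74 to -0.60) was not called without D2HG_LPS replicate 1, 2 or 3 or without Veh_LPS replicate 2 or 3.

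Some transcription factor genes and a cyclin gene changed as well. Elk3, an ETS factor phosphorylated by ERK, was at 19.3, 18.5 and 16.6 CPM in D2HG_LPS and 7.51, 8.17 and 8.14 CPM in Veh_LPS (log2 fold change 1.19 ± 0.11, adjusted p = 1.29e-04). The groups did not overlap, and Veh_N was at 59.1 ± 1.69 CPM. Ccnd1, cyclin D1, named after its values were seen, rose by 0.68 ± 0.13, the immediate-early factor Fos by 0.79 ± 0.15 and Dusp6, the phosphatase that switches ERK off, by 0.84 ± 0.14. Klf10, a factor induced by transforming growth factor beta, was at 11.7, 11.2 and 14.1 CPM in D2HG_LPS and 4.84, 5.83 and 5.25 CPM in Veh_LPS (log2 fold change 1.21 ± 0.14, adjusted p = 7.72e-04). It was the 1 called gene of 15 tested KLF and EGR factors, whose median was -0.10. Bhlhe41, a circadian repressor, rose by 0.88 ± 0.12 and Jdp2, an AP-1 repressor, by 0.85 ± 0.10. Of 22 AP-1, CREB and NR4A factors, Fos was called higher while the orphan nuclear receptor Nr4a3 (-0.87 ± 0.19) and Maf (-0.45 ± 0.10) were called lower. Of 21 genes of transforming growth factor beta and activin signalling, the type I receptor Acvrl1 alone was called (0.60 ± 0.12). Ccnd1 (0.66 to 0.73) was not called without D2HG_LPS replicate 1, 2 or 3 or without Veh_LPS replicate 1. Fos (0.74 to 0.84) was not called without D2HG_LPS replicate 1, 2 or 3 or without Veh_LPS replicate 1 or 2. Dusp6 (0.74 to 0.85) was not called without D2HG_LPS replicate 1 or 2 or without Veh_LPS replicate 1. Nr4a3 (-0.97 to -0.78) was not called without D2HG_LPS replicate 1, 2 or 3, Veh_LPS replicate 1 or 3 or without Veh_N replicate 2. Maf (-0.49 to -0.36) was not called without any 1 of the 6 LPS libraries or Veh_N replicate 2. Acvrl1 (0.55 to 0.64) was not called without any 1 of the 6 LPS libraries.

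Genes of the integrated stress response were called higher in 7 of 30 tested cases and lower in 0, with a median log2 fold change of 0.27 against 0.01 over all tested genes. In this response, kinases that sense amino acid shortage, misfolded proteins or heme shortage slow translation while the factor ATF4 is made, and ATF4 binds composite elements in genes of amino acid supply and of cell fate. The promoter of Chac1 is shown because it holds such an element, and Chac1 had the largest change of the list. The 250 bases before its start are chr2:119350992-119351241, plus strand (RefSeq, GRCm38.p6). Capitals mark the reverse complement of the element TGATGNAA, whose first base is 193 bases before the start.
Chac1: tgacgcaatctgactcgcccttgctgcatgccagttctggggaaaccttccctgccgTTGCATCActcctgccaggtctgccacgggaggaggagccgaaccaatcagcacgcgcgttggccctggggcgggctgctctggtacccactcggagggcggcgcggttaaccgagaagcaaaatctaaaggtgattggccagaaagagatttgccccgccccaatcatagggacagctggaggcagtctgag

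These letters, searched on both strands, were present in 2.06% of the 9345 promoters of tested genes that could be matched, and in 5 of 25 promoters of the stress list. They were present in 4 of 107 promoters of genes called higher and in 7 of 92 of genes called lower. A match is a description of the sequence and not evidence of binding.

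Chac1, a glutathione-degrading enzyme, was at 3.61, 2.65 and 2.27 CPM in D2HG_LPS and 0.889, 0.636 and 0.613 CPM in Veh_LPS (log2 fold change 1.98 ± 0.32, adjusted p = 0.0073), so its change rests on low levels. Trib3, a pseudokinase induced by ATF4 that inhibits AKT, was at 6.44, 6.06 and 7.20 CPM in D2HG_LPS and 2.37, 2.55 and 1.75 CPM in Veh_LPS (log2 fold change 1.57 ± 0.20, adjusted p = 0.0015). Neither gene's groups overlapped. Sesn2, a leucine sensor that restrains the kinase complex mTORC1, rose by 0.92 ± 0.16 and Cebpg, a partner of ATF4, by 0.66 ± 0.11. Named after their values were seen, Atf4 itself was at 415, 351 and 401 CPM in D2HG_LPS and 277, 295 and 261 CPM in Veh_LPS (0.49 ± 0.08), the stress cytokine gene Gdf15 rose by 0.82 ± 0.19 and Nupr1 by 0.48 ± 0.11. Amino acid synthesis genes of the same list were not called, among them asparagine synthetase Asns (0.26 ± 0.10, adjusted p = 0.21), also named after its values were seen, and Phgdh (0.15 ± 0.13, adjusted p = 0.64). Of 21 genes of the unfolded protein response 0 were called by edgeR, DESeq2 or limma-voom, with 3 at an unadjusted p below 0.05, and in 20 of them the 95% confidence interval lay within 1.5-fold. The count of 7 ranged from 1 without D2HG_LPS replicate 1 to 10 without Veh_N replicate 1 over the fits that left out 1 library. Chac1 (1.78) was not called without D2HG_LPS replicate 1. Sesn2 (0.82 to 0.93) was not called without D2HG_LPS replicate 1 or 2 or without Veh_LPS replicate 1. Cebpg (0.63 to 0.64) was not called without D2HG_LPS replicate 1 or without Veh_LPS replicate 1. Atf4 (0.44 to 0.48) was not called without D2HG_LPS replicate 1 or 3 or without Veh_LPS replicate 1. Gdf15 (0.71 to 0.86) and Nupr1 (0.40 to 0.54) were not called without D2HG_LPS replicate 1, 2 or 3, Veh_LPS replicate 1 or 3 or without Veh_N replicate 2.

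Cytosolic heat shock genes were called higher in 4 of 21 cases and lower in 0 (median 0.12), and these 4 encode Hsp70-type chaperones or their partners. Heat shock factor HSF1 binds inverted repeats of the unit GAA before such genes. The promoters of Hspa1a and Hspa1b, the inducible Hsp70 genes, are shown because both hold a pair of these units and are nearly the same: 247 of 250 positions are identical. They are chr17:34972157-34972406 and chr17:34959239-34959488, both on the minus strand (RefSeq, GRCm38.p6), and capitals mark GAANNTTC, whose first base lies 104 bases before the start.
Hspa1a: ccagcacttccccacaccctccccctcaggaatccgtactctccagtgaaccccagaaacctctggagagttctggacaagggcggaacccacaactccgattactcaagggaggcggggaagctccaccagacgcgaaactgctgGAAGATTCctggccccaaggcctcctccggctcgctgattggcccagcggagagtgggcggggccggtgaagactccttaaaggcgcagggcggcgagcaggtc
Hspa1b: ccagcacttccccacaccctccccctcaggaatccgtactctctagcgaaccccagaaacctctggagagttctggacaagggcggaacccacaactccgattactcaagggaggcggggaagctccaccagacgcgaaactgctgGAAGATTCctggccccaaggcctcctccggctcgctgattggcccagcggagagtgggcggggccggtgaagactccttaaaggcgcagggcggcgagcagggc

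GAANNTTC or TTCNNGAA, on either strand, was present in 10.3% of the 9345 promoters and in 41.2% of 17 promoters of the heat shock list. It was present in 16 of 107 promoters of genes called higher and in 11 of 92 of genes called lower.

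Hspa1a was at 35.6, 32.2 and 37.8 CPM in D2HG_LPS and 14.5, 18.8 and 18.2 CPM in Veh_LPS (log2 fold change 1.03 ± 0.13, adjusted p = 0.0012), and Hspa1b at 34.0, 32.6 and 31.7 CPM in D2HG_LPS and 17.3, 14.8 and 16.2 CPM in Veh_LPS (log2 fold change 1.03 ± 0.11, adjusted p = 4.97e-04). All D2HG_LPS libraries were above all Veh_LPS libraries in both genes, but the genes are near-identical and reads may be shared between them, so they are not independent. Hsph1, an exchange factor for Hsp70, rose by 0.53 ± 0.11 and the co-chaperone Dnajb1 by 0.42 ± 0.09. The count of 4 ranged from 2 (without any D2HG_LPS library, Veh_LPS replicate 1 or 3 or Veh_N replicate 2) to 6 (without Veh_N replicate 1) over the fits that left out 1 library. Hsph1 (0.47 to 0.56) and Dnajb1 (0.35 to 0.44) were not called without D2HG_LPS replicate 1, 2 or 3, Veh_LPS replicate 1 or 3 or without Veh_N replicate 2.

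Of 28 antioxidant genes, many of them targets of the factor NRF2, 2 were called higher and 0 lower (median 0.16). Srxn1, which repairs oxidised peroxiredoxins, was at 141, 127 and 153 CPM in D2HG_LPS and 66.2, 81.6 and 86.8 CPM in Veh_LPS (log2 fold change 0.84 ± 0.11, adjusted p = 0.0014), and glutathione reductase Gsr rose by 0.36 ± 0.07. The heme oxygenase gene Hmox1, a well-known NRF2 target named after its values were seen, did not pass (0.20 ± 0.09, adjusted p = 0.33). Among 28 autophagy genes 2 were called higher and 0 lower (median 0.03): Gabarapl1, a ubiquitin-like protein of the autophagosome membrane (0.71 ± 0.12), and the cargo receptor Sqstm1 (0.37 ± 0.08). Of 30 genes of lysosome and vacuolar ATPase only the ATPase subunit Atp6v1b2 was called (-0.33 ± 0.06), and in 27 the 95% interval lay within 1.5-fold. Of 30 hypoxia-inducible genes 3 were called higher and 0 lower (median 0.14): Hilpda, Vegfa and Mxi1, a MYC antagonist (0.52 ± 0.11). Gsr (0.34 to 0.38), Sqstm1 (0.32 to 0.40) and Mxi1 (0.47 to 0.55) were not called without any 1 of the 6 LPS libraries or Veh_N replicate 2. Gabarapl1 (0.61 to 0.71) was not called without D2HG_LPS replicate 1 or 3 or without Veh_LPS replicate 1. Atp6v1b2 (-0.35 to -0.31) was not called without D2HG_LPS replicate 1, 2 or 3 or without Veh_LPS replicate 1 or 2.

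**Figure D4:**
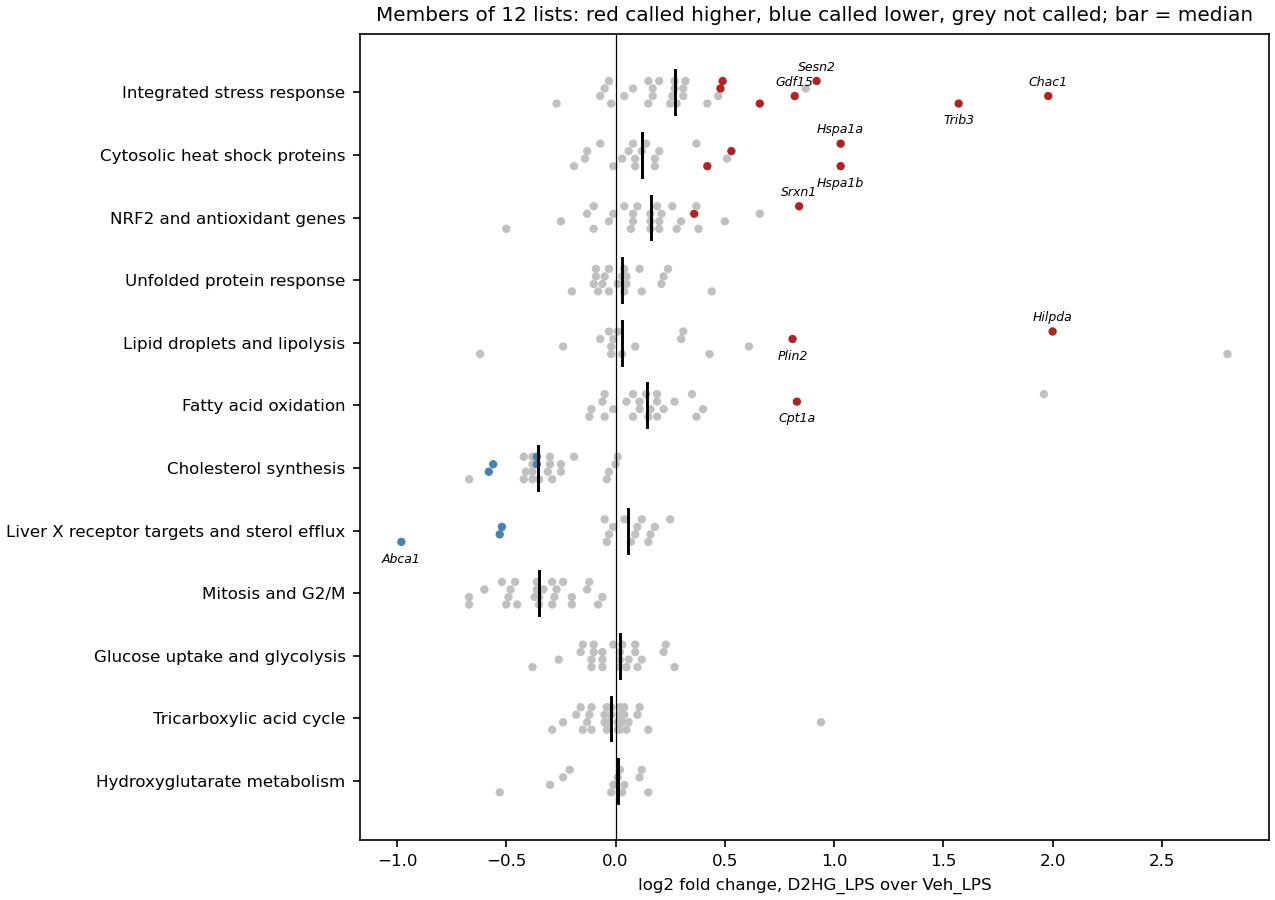
Points are the tested members of 12 lists by log2 fold change in D2HG_LPS over Veh_LPS, red where called higher, blue where called lower and grey where not called, with a bar at the median of the list. The medians of the integrated stress response (0.27) and of cholesterol synthesis (-0.35) lie on opposite sides of 0, and glycolysis, the tricarboxylic acid cycle and hydroxyglutarate metabolism are grey throughout.

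Lipid genes changed in both directions: 2 lipid droplet genes and 1 fatty acid oxidation gene rose, and 4 genes of the cholesterol synthesis list and 3 liver X receptor targets fell. Plin2, the main lipid droplet coat protein of macrophages, was at 1809.7, 1669.6 and 1836 CPM in D2HG_LPS and 1039, 1076 and 908 CPM in Veh_LPS (log2 fold change 0.81 ± 0.08, adjusted p = 4.36e-04). Cpt1a, which passes long-chain fatty acids into mitochondria for oxidation, was at 168, 181 and 171 CPM in D2HG_LPS and 95.7, 88.9 and 108 CPM in Veh_LPS (log2 fold change 0.83 ± 0.09, adjusted p = 4.97e-04). Neither gene's groups overlapped, and in both the D2HG_LPS libraries lay above the Veh_N mean after TMM scaling (701 ± 38.4 CPM and 107 ± 6.71 CPM). With Hilpda, Plin2 made 2 calls higher among 17 lipid droplet and lipolysis genes (median 0.03), and Cpt1a was the 1 call among 24 fatty acid oxidation genes (median 0.14). Olr1, the scavenger receptor LOX-1 for oxidised lipoprotein, was at 13.5, 10.3 and 11.4 CPM in D2HG_LPS and 4.05, 3.50 and 4.99 CPM in Veh_LPS (log2 fold change 1.48 ± 0.20, adjusted p = 0.0021). It was called higher while the scavenger receptor Marco was called lower (-0.70 ± 0.14), out of 21 scavenger and phagocytosis genes. Marco (-0.69 to -0.60) was not called without D2HG_LPS replicate 1 or 2 or without Veh_LPS replicate 2 or 3.

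In the list of cholesterol synthesis and its control, 4 of 24 tested genes were called lower and 0 higher. Of the 24, 23 had a negative log2 fold change, and the median was -0.35, against 0.01 over all tested genes. A change was called in squalene epoxidase Sqle (-0.56 ± 0.13), at 41.3, 39.6 and 46.4 CPM in D2HG_LPS and 54.8, 60.9 and 71.5 CPM in Veh_LPS, and the groups did not overlap. The lowest value of the list, Hsd17b7 (-0.67 ± 0.17, adjusted p = 0.069), did not pass and is named after its values were seen. The count of 4 was 14 in DESeq2, 10 with the 6 LPS libraries alone, 7 with relative log expression size factors, 3 in limma-voom and 1 with library totals alone. It was 1 without any single LPS library or Veh_N replicate 2, 9 without Veh_N replicate 3 and 11 without Veh_N replicate 1. Sqle (-0.64 to -0.45) was not called without any 1 of the 6 LPS libraries or Veh_N replicate 2.

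Of 16 tested genes of a list that holds the liver X receptors, which sense oxysterols, their targets and other sterol handling genes, 3 were called lower and 0 higher, although the median was 0.05. They were the cholesterol exporters Abca1, at 63.8, 65.0 and 63.0 CPM in D2HG_LPS and 114, 111 and 154 CPM in Veh_LPS (log2 fold change -0.98 ± 0.14, adjusted p = 0.0033), and Abcg1, at 392, 387 and 345 CPM in D2HG_LPS and 583, 522 and 519 CPM in Veh_LPS (log2 fold change -0.53 ± 0.08, adjusted p = 0.0052), and Mylip (-0.52 ± 0.11), a ubiquitin ligase. The groups did not overlap in either exporter, and Veh_N held 522 ± 84.5 CPM of Abca1 and 314 ± 13.9 CPM of Abcg1. Under this scaling the D2HG_LPS mean lay below both other groups in Abca1 and between them in Abcg1. Fatty acid synthase Fasn (-0.56 ± 0.10) was the 1 call among 21 genes of fatty acid synthesis and desaturation (median -0.18). Lipg, endothelial lipase, was at 459, 474 and 449.6 CPM in D2HG_LPS and 856, 813 and 779 CPM in Veh_LPS (log2 fold change -0.82 ± 0.09, adjusted p = 5.95e-04). Every D2HG_LPS library was below every Veh_LPS library. Mylip (-0.55 to -0.42) was not called without D2HG_LPS replicate 1, 2 or 3, Veh_LPS replicate 2 or 3 or without Veh_N replicate 2. Fasn (-0.57 to -0.54) was not called without D2HG_LPS replicate 2 or 3 or without Veh_LPS replicate 1.

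Both called genes of polyamine metabolism rose. Odc1, the rate-limiting enzyme of polyamine synthesis, was at 90.6, 93.2 and 83.8 CPM in D2HG_LPS and 44.9, 50.1 and 36.9 CPM in Veh_LPS (log2 fold change 1.02 ± 0.11, adjusted p = 7.39e-04). Smox, which oxidises spermine, was at 44.6, 44.8 and 44.8 CPM in D2HG_LPS and 29.3, 32.0 and 25.7 CPM in Veh_LPS (log2 fold change 0.63 ± 0.10, adjusted p = 0.0073). In both genes the groups did not overlap, and they were the 2 calls among 19 genes of arginine, nitric oxide, itaconate and polyamine metabolism (median 0.09). Smox (0.63) was not called without D2HG_LPS replicate 1.

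No gene of the lists of hydroxyglutarate metabolism, glycolysis, the tricarboxylic acid cycle, the respiratory chain or the pentose phosphate pathway was called in the reported edgeR fit. For hydroxyglutarate, the D-2-hydroxyglutarate dehydrogenase D2hgdh (0.11 ± 0.17, adjusted p = 0.81) and the isocitrate dehydrogenases Idh1 (-0.24 ± 0.10, 0.24) and Idh2 (0.04 ± 0.09, 0.87) did not pass. None of 13 genes of this list was called by edgeR, DESeq2 or limma-voom (2 at an unadjusted p below 0.05), and 10 had a 95% interval within 1.5-fold. None of 25 glycolysis genes was called in the reported fit (4 unadjusted). DESeq2, limma-voom and edgeR with relative log expression size factors, with no filter on low counts, with the 6 LPS libraries alone or without Veh_LPS replicate 2 or Veh_N replicate 1 or 3 each called 1 lower. The lowest was the regulator Pfkfb3 at 187, 193 and 199 CPM in D2HG_LPS and 275, 223 and 256 CPM in Veh_LPS (log2 fold change -0.38 ± 0.09, adjusted p = 0.053), and 21 of the 25 intervals lay within 1.5-fold. Such interval counts depend on the level of the members. In the tricarboxylic acid cycle 0 of 30 genes were called by any of these tools (3 unadjusted) and 28 intervals lay within 1.5-fold. The pyruvate dehydrogenase kinase Pdk2 had the highest value (log2 fold change 0.94 ± 0.27, adjusted p = 0.11). None of 37 respiratory chain genes was called by any of the 3 (0 unadjusted), with 29 intervals within 1.5-fold. In the pentose phosphate pathway and nucleotide synthesis 0 of 26 genes were called in the reported fit or by limma-voom (3 unadjusted), 2 were called lower by DESeq2 and 1 by edgeR without Veh_N replicate 1. Of 31 dioxygenases that use alpha-ketoglutarate, the histone demethylase gene Kdm5b was called (0.65 ± 0.12) and the median was -0.06. Of the 31, 19 had a negative and 12 a positive log2 fold change, and 11 had an unadjusted p below 0.05. In DESeq2 and with the 6 LPS libraries alone 2 were called lower, and in limma-voom 0. Kdm5b (0.61 to 0.67) was not called without D2HG_LPS replicate 1, 2 or 3 or without Veh_LPS replicate 1 or 2.

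**Figure D5:**
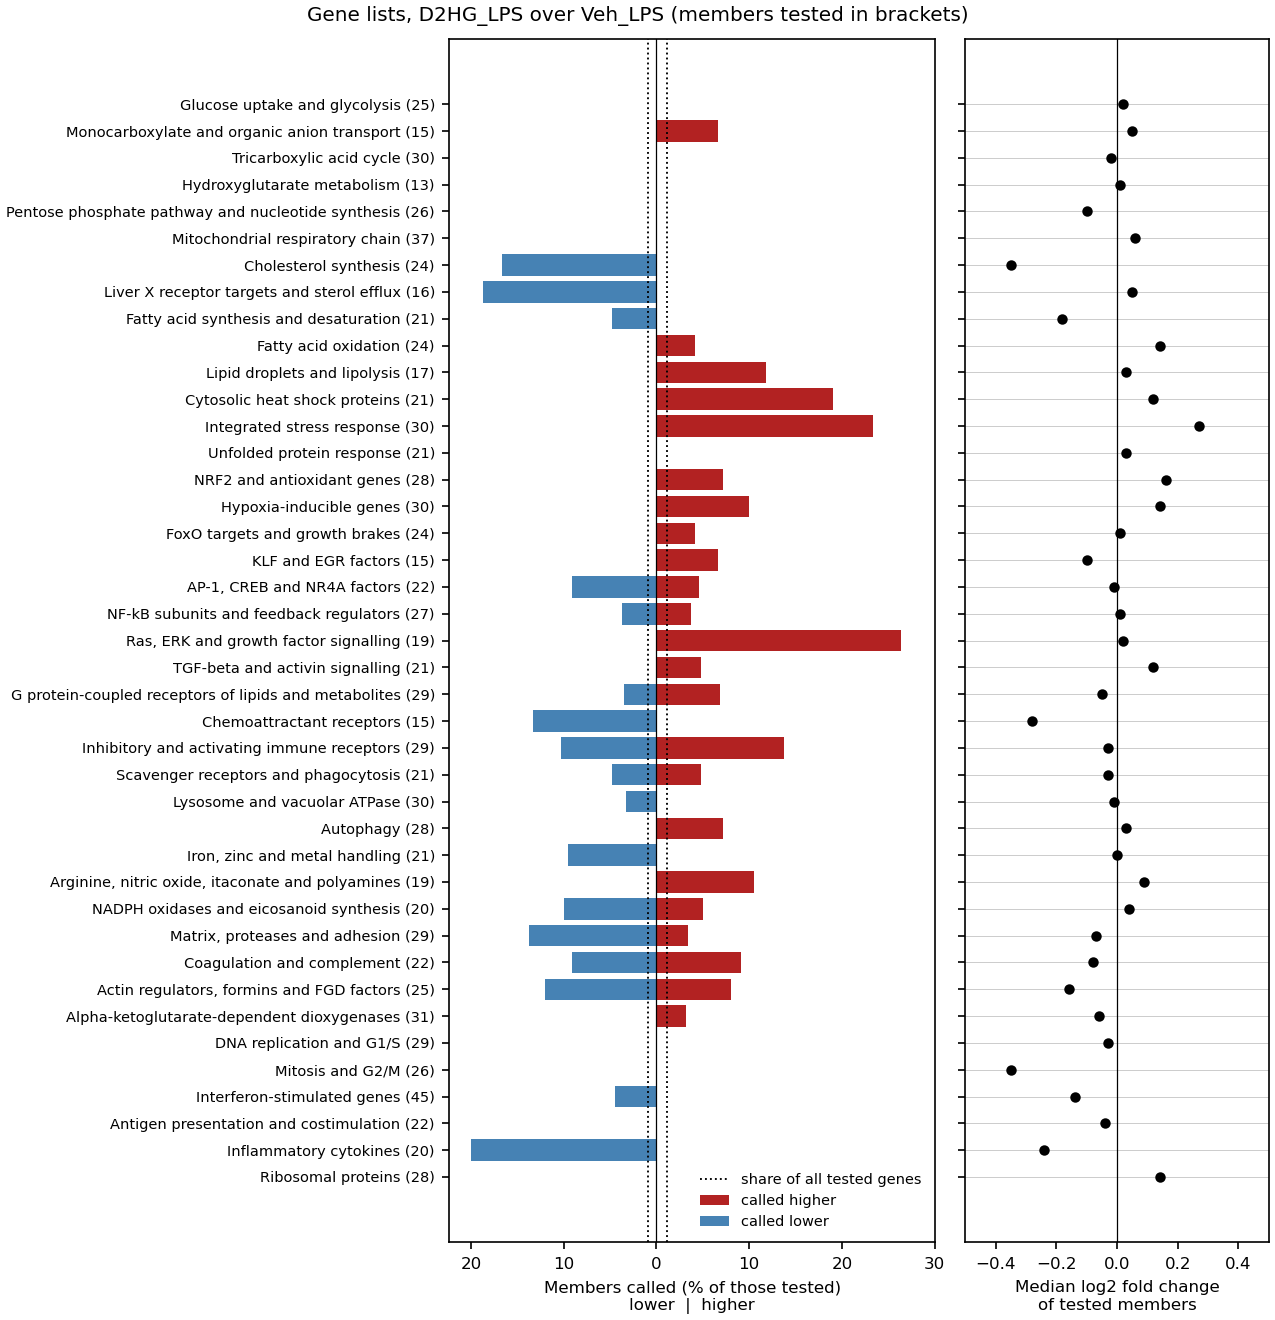
For each of 41 gene lists, with the number of tested members in brackets, bars give the percent of members called higher (red, right) and lower (blue, left), dotted lines the shares of all tested genes (1.15% and 0.955%), and points the median log2 fold change of the tested members. Red bars are longest for Ras, ERK and growth factor signalling (5 of 19) and the integrated stress response (7 of 30), and blue bars for inflammatory cytokines (4 of 20) and liver X receptor targets and sterol efflux (3 of 16). The lists were chosen with earlier results of these data known, so bars beyond the dotted lines are not a test of a list.

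Surface receptors changed in both directions. Of 29 inhibitory and activating immune receptors, 4 were called higher and 3 lower (median -0.03). Cd300a, an inhibitory receptor for phosphatidylserine, was at 54.5, 50.1 and 56.7 CPM in D2HG_LPS and 23.2, 21.3 and 18.7 CPM in Veh_LPS (log2 fold change 1.35 ± 0.12, adjusted p = 1.29e-04), and Cd300lb, an activating family member, at 12.1, 13.2 and 14.5 CPM in D2HG_LPS and 6.42, 6.79 and 7.79 CPM in Veh_LPS (log2 fold change 0.91 ± 0.12, adjusted p = 0.0021). The groups did not overlap in either gene, and Cd300a stayed under its Veh_N level of 254 ± 36.8 CPM. Cd300lf (0.47 ± 0.10) and Havcr2, the receptor TIM-3 (0.82 ± 0.15), rose as well and are named after their values were seen. The receptors that fell were Fcgr4, an activating receptor for immunoglobulin G, at 280.2, 288 and 284 CPM in D2HG_LPS and 451, 429 and 416 CPM in Veh_LPS (log2 fold change -0.60 ± 0.07, adjusted p = 9.75e-04), the inhibitory Pilra (-0.61 ± 0.08) and Fcgr2b, the inhibitory receptor for immunoglobulin G (-0.53 ± 0.09), the last named after its values were seen. Fcgr4 was lower in every D2HG_LPS library. The C-type lectins Clec4a1 (-0.63 ± 0.11) and Clec4a3 (-0.48 ± 0.11), also named after their values were seen, were called lower. Cd300lf (0.38 to 0.55) and Clec4a3 (-0.55 to -0.39) were not called without any 1 of the 6 LPS libraries or Veh_N replicate 2. Havcr2 (0.76 to 0.88) was not called without D2HG_LPS replicate 1, 2 or 3 or without Veh_LPS replicate 1 or 2. Fcgr2b (-0.54 to -0.52) was not called without D2HG_LPS replicate 1, 2 or 3. Clec4a1 (-0.64 to -0.61) was not called without D2HG_LPS replicate 1 or 3.

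Among 29 G protein-coupled receptors of lipids and metabolites, 2 were called higher and 1 lower (median -0.05). Cnr2, the cannabinoid receptor of immune cells, was at 2.93, 2.56 and 3.16 CPM in D2HG_LPS and 1.09, 1.27 and 1.14 CPM in Veh_LPS (log2 fold change 1.30 ± 0.20, adjusted p = 0.0053), and P2ry6, a receptor for uridine diphosphate, rose by 0.62 ± 0.11. Gpr85, an orphan receptor, was at 37.3, 39.3 and 39.6 CPM in D2HG_LPS and 66.2, 68.6 and 81.0 CPM in Veh_LPS (log2 fold change -0.90 ± 0.11, adjusted p = 0.0012). Neither Cnr2 nor Gpr85 overlapped between the groups. The change of Cnr2 rests on low levels in both LPS groups, while Veh_N was at 46.2 ± 1.09 CPM. Of 15 chemoattractant receptors 2 were called lower and 0 higher (median -0.28), both receptors for formyl peptides of bacteria. Fpr1 was at 17.3, 17.6 and 16.4 CPM in D2HG_LPS and 33.0, 35.8 and 45.9 CPM in Veh_LPS (log2 fold change -1.16 ± 0.14, adjusted p = 9.75e-04) and Fpr2 fell (-0.90 ± 0.18). The Veh_N level of Fpr1 was 0.508 ± 0.137 CPM. P2ry6 (0.55 to 0.64) was not called without D2HG_LPS replicate 1 or 3 or without Veh_LPS replicate 1. Fpr2 (-0.92 to -0.86) was not called without D2HG_LPS replicate 1, 2 or 3.

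Of 29 adhesion, protease and matrix genes 4 fell and 1 rose (median -0.07). Sele, E-selectin, which is outside this list and named after its values were seen, was at 3.41, 4.10 and 2.47 CPM in D2HG_LPS and 9.38, 10.2 and 8.93 CPM in Veh_LPS (log2 fold change -1.50 ± 0.21, adjusted p = 0.0052). All D2HG_LPS libraries were lower than all Veh_LPS libraries. Thrombospondin Thbs1 (-0.84 ± 0.14), the collagen cross-linking enzyme Lox (-1.01 ± 0.18) and Serpinb2, an inhibitor of plasminogen activators (-1.20 ± 0.24, named after its values were seen), were called lower, while Plau, the urokinase that Serpinb2 inhibits, rose by 0.63 ± 0.12. Thbs1 (-0.81) was not called without D2HG_LPS replicate 1. Lox (-1.06 to -0.95) was not called without D2HG_LPS replicate 1, 2 or 3. Serpinb2 (-1.33 to -0.99) was not called without D2HG_LPS replicate 1, 2 or 3 or without Veh_LPS replicate 1 or 3. Plau (0.60 to 0.67) was not called without D2HG_LPS replicate 1, 2 or 3 or without Veh_LPS replicate 1.

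Of 22 genes of coagulation and complement, 2 were called higher (Plau and Procr, the protein C receptor, 0.59 ± 0.10) and 2 lower (median -0.08). Coagulation factor F10 was at 51.2, 50.0 and 56.5 CPM in D2HG_LPS and 84.2, 89.4 and 92.2 CPM in Veh_LPS (log2 fold change -0.75 ± 0.09, adjusted p = 9.83e-04). Ptx3, a soluble pattern recognition protein that binds complement, was at 1.17, 1.79 and 1.48 CPM in D2HG_LPS and 6.42, 5.62 and 6.91 CPM in Veh_LPS (log2 fold change -2.08 ± 0.25, adjusted p = 9.83e-04). It had the lowest value of any listed gene, at low levels in both groups that did not overlap. Serpina3g, an inhibitor of cathepsins, was at 573, 587 and 548 CPM in D2HG_LPS and 1056, 1026 and 977 CPM in Veh_LPS (log2 fold change -0.84 ± 0.10, adjusted p = 9.55e-04), though reads may be shared with near-identical neighbours. Procr (0.51 to 0.58) was not called without D2HG_LPS replicate 1 or 3 or without Veh_LPS replicate 1.

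In iron and metal handling 2 of 21 genes were called lower and 0 higher. They were ceruloplasmin Cp, an iron-oxidising copper protein, at 89.3, 88.3 and 84.8 CPM in D2HG_LPS and 145, 122 and 153 CPM in Veh_LPS (log2 fold change -0.68 ± 0.09, adjusted p = 0.0022), and the metalloreductase Steap4 (-1.24 ± 0.27). The groups of Cp did not overlap. Of 20 genes of NADPH oxidases and eicosanoid synthesis, cyclooxygenase-2 Ptgs2 (-0.64 ± 0.12) and the oxidase Nox1 (-1.03 ± 0.24) fell, while Ptges, the prostaglandin E synthase that acts after Ptgs2, rose by 0.69 ± 0.11. Steap4 (-1.49 to -1.08) was not called without D2HG_LPS replicate 1, 2 or 3, Veh_LPS replicate 1 or 3 or without Veh_N replicate 2. Ptgs2 (-0.66 to -0.62) was not called without D2HG_LPS replicate 1, 2 or 3 or without Veh_N replicate 2. Nox1 (-1.23 to -0.79) was not called without any 1 of the 6 LPS libraries or Veh_N replicate 2. Ptges (0.63 to 0.66) was not called without D2HG_LPS replicate 1 or 3 or without Veh_LPS replicate 1.

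Of 25 actin regulators 2 were called higher and 3 lower (median -0.16). The formin Fmnl3, which builds actin filaments, was at 6.24, 7.94 and 8.49 CPM in D2HG_LPS and 2.67, 3.29 and 3.50 CPM in Veh_LPS (log2 fold change 1.26 ± 0.20, adjusted p = 0.0059), and its relative Fmnl1 rose by 0.39 ± 0.07. The exchange factor Fgd4 (-0.88 ± 0.18), the small GTP-binding protein Rnd3 (-0.37 ± 0.08, named after its values were seen) and the bundling protein Fscn1 (-0.71 ± 0.11) fell. Fscn1 is also a dendritic cell marker: the summed level of 9 such markers was 57.0 to 62.0 CPM in D2HG_LPS and 80.7 to 87.8 CPM in Veh_LPS, with Fscn1 the only 1 called of 6 tested, and their part in the result was not tested. Fmnl1 (0.37 to 0.40) and Rnd3 (-0.39 to -0.36) were not called without any 1 of the 6 LPS libraries. Fgd4 (-0.98 to -0.71) was not called without D2HG_LPS replicate 1, 2 or 3, Veh_LPS replicate 1 or 3 or without Veh_N replicate 2. Fscn1 (-0.70 to -0.66) was not called without D2HG_LPS replicate 2 or 3 or without Veh_LPS replicate 1.

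In the reported fit, immune effector lists were changed in a few members. Of 45 interferon-stimulated genes 2 were called lower and 0 higher (median -0.14), the chemokine Cxcl9, at 382, 388 and 389 CPM in D2HG_LPS and 858, 813 and 882 CPM in Veh_LPS (log2 fold change -1.14 ± 0.07, adjusted p = 4.90e-06), and Trim21 (-0.40 ± 0.08). In this list 36 genes had a negative and 9 a positive log2 fold change. The count called lower was 5 in DESeq2, 3 in limma-voom and 1 to 7 over the fits that left out 1 library. With the 6 LPS libraries alone 11 were called lower and 1 higher. Of 20 inflammatory cytokine genes 4 were called lower and 0 higher (median -0.24): Il12b, at 184, 153 and 188 CPM in D2HG_LPS and 274, 283 and 365 CPM in Veh_LPS (-0.81 ± 0.12), Il6 (-0.69 ± 0.11), Il18 (-0.36 ± 0.08) and Tnfsf15 (-0.94 ± 0.13). No library of the groups overlapped in Cxcl9 or Il12b. The chemokine Ccl8 (-0.84 ± 0.12) and the class I-like gene H2-M2 (-0.85 ± 0.14) fell too. Among 27 NF-kB subunits and feedback regulators, Dusp6 was called higher and Nfkbiz, a nuclear cofactor of NF-kB, lower (-0.54 ± 0.09), with a median of 0.01. Members of these 27 called lower numbered 4 in DESeq2, 4 with the 6 LPS libraries alone and 2 in limma-voom. They numbered 0 to 4 over the fits that left out 1 library. None of 22 antigen presentation and costimulation genes was called in the reported fit or by limma-voom (2 unadjusted), and 1 was called lower by DESeq2 and by edgeR with no filter on low counts, with the 6 LPS libraries alone, with summed transcripts or without Veh_N replicate 1 or 3. In this list 21 intervals lay within 1.5-fold. Trim21 (-0.40 to -0.35) was not called without D2HG_LPS replicate 1, 2 or 3, Veh_LPS replicate 1 or 3 or without Veh_N replicate 2. Il6 (-0.67) was not called without D2HG_LPS replicate 1. Il18 (-0.40 to -0.29) was not called without any 1 of the 6 LPS libraries or Veh_N replicate 2. H2-M2 (-0.78) was not called without D2HG_LPS replicate 2. Nfkbiz (-0.55 to -0.53) was not called without D2HG_LPS replicate 1 or 3.

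Mitosis genes shared a direction without passing in the reported fit. None of 26 was called there or by limma-voom, while 3 were called lower by DESeq2, by edgeR on the 6 LPS libraries alone and by edgeR without Veh_N replicate 1 or 3, and 1 by edgeR with no filter on low counts. Still, 26 of 26 had a negative log2 fold change, 12 had an unadjusted p below 0.05, and the median was -0.35 (-0.39 to -0.29 under the other scalings). Over all 11622 tested genes the median was 0.01, and 1832 had an unadjusted p below 0.05. Members of this list are expressed together in dividing cells and are not independent of each other. None of 29 genes of DNA replication and entry into S phase was called by any of the 3 tools (3 unadjusted, median -0.03). None of 28 ribosomal protein genes was called by any of them (0 unadjusted, median 0.14), and many of these have near-identical pseudogenes that may share reads.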

How the data were processed

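RNA was sequenced from 9 libraries of mouse bone marrow-derived macrophages, 3 in each of 3 groups taken from the labels. The authors deposited 1 table of raw read counts per RefSeq transcript. Per the labels' protocols the libraries were strand-specific (KAPA mRNA HyperPrep), and STAR 2.5.2b, DESeq2 and the builds mm10 and mm9 are named per the submitters' processing notes. How reads were counted, and on which strand, is not stated there, so overlapping or near-identical genes may share reads.

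Of 35745 transcripts, 35440 were matched to symbols through RefSeq and 188 through GENCODE vM21. The 117 unmatched ones held 0.676% to 2.37% of counts and were left out. The transcript with most counts was kept for each of 24445 genes, and 16158 genes had counts. Genes passing filterByExpr (11622) were scaled by TMM and fitted over all 9 libraries with glmQLFit (robust) in edgeR 4.0.16 (R 4.3.3), with group as the only term, and D2HG_LPS was tested against Veh_LPS with a two-sided glmQLFTest. Each standard error is the size of the log2 fold change divided by the root of its F statistic. Depth limits the precision of genes with few counts, and counts carry no molecular identifiers. No replicate pair agreed within counting noise (chi-square per degree of freedom 2.78 to 23.9).

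Named genes were, in each direction, the 20 called genes that changed most (average log2 CPM 3 or above, groups not overlapping, no predicted genes). That average was over all 9 libraries, so genes weak in both LPS groups, such as Cnr2, Hyal1 and Fmnl3, could pass through their Veh_N level. Sele, at 0 CPM in Veh_N, did not pass. From each of 41 lists at most the 4 genes with the lowest p were added, and a few fixed genes, among them Slc16a6, Hilpda, D2hgdh, Idh1 and Idh2. Others are said to be named after their values were seen, and not every gene that the rule takes is reported here. Comparison, lists and rules were chosen with earlier results of these data known. Alternatives were 3 scalings, 2 filters, DESeq2 1.42.0, limma-voom (limma 3.58.1), a fit without robust shrinkage, the 6 LPS libraries alone, a replicate block, summed transcripts and each library left out. Promoters are the 250 bases before the RefSeq start, with 1 row used for each gene. A promoter was matched for 9345 tested genes, and 2277 had none.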

Additional observations from a re-analysis of the deposited data

How the results depend on the processing

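The numbers of called genes were 245 in all, 134 higher and 111 lower. With each of the 9 libraries left out in turn they ranged from 64 to 501 in all, 35 to 230 higher and 29 to 271 lower. Counts that moved by more than 1.5 times were the 522 calls in DESeq2 (343 of them lower), the 450 calls with the 6 LPS libraries alone (253 lower), the 93 calls with a replicate block (53 higher and 40 lower), and, by direction, 212 higher and 73 lower with library totals alone. Upper-quartile scaling gave 249 calls, relative log expression size factors 265, no filter on low counts 314, a CPM of at least 5 in 3 libraries 248, limma-voom 263, no robust shrinkage 241 and summed transcripts 203. All 93 calls of the replicate block were among the 245. No label ties the numbers to a shared source, and same-numbered libraries of both LPS groups deviated together with correlations of 0.036, -0.137 and -0.131. Of the log2 fold changes of the 103 named genes under the alternatives, 1748 kept their direction and side of the threshold, 295 lost and 13 gained a call, and 1 reversed, that of Idh2 (0.04 reported and -0.03 without Veh_LPS replicate 3, between -0.03 and 0.08 over the fits that left out 1 library and up to 0.10 with library totals alone). The cause of these differences was not tested. Depth limits the 2906 least expressed genes, where the median SE was 0.32.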

Other observations

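Transcripts of 1 gene could be compared in 3148 genes with at least 2 transcripts of 300 or more counts in the 6 LPS libraries. Most transcripts of a gene share exons and hence reads. The log2 ratio of D2HG_LPS to Veh_LPS (on CPM plus 0.1) differed by at least 0.5 between transcripts in 3 genes and by at least 1 in 0. They were LTO1 (0.72 and 0.17), Hspa14 (0.12 and -0.39) and Atxn7l1 (0.01 and -0.49). No test was made of these gaps. In Atxn7l1, the transcript with the lower ratio went from 86.3 CPM in Veh_LPS to 61.6 CPM in D2HG_LPS, while the other was at 29.6 and 29.9 CPM.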
